A study of Mus musculus with 6 samples.

Results

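TGF-beta and BMP signals reach the nucleus through SMAD proteins. TGFBR2 binds the ligand and activates TGFBR1, which phosphorylates SMAD2 and SMAD3, whereas BMP receptors phosphorylate SMAD1, SMAD5 and SMAD9, and either set then joins SMAD4. In cartilage, signalling through SMAD3 is known to restrain hypertrophic maturation of chondrocytes, and the BMP branch is known to promote it. The genes described here are the 6 SMADs that carry these signals (Smad1, Smad2, Smad3, Smad4, Smad5 and Smad9), the receptor genes Tgfbr1, Tgfbr2 and Tgfbr3, and Skil, which encodes the SMAD corepressor SnoN. They are 10 of the 54532 genes in the count table, picked by gene name, and each name had 1 row. The genes had been chosen by their levels in the comparison of Gli1+ with Gli1- cells, with Smad3 in view, so their differences between these populations are given as descriptions without a p-value. All 10 passed the filter on low counts, by which 14801 genes were tested.

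RNA came from cells sorted as CD45-CD31-Ter119- from cartilage of 1-month-old Gli1-CreERT2; tdTomato mice on a C57BL/6 background, taken 1 day after tamoxifen. The tdTomato+ (Gli1+) and tdTomato- (Gli1-) cells came from the same mice, so both had the same inherited genotype and the same treatment. They differ in recombination of the tdTomato reporter, by which they were sorted. Each population had 3 libraries, which the study describes as biological replicates. The paper names costal cartilage and the labels name the growth plate. CreERT2 is driven from the Gli1 gene, so tdTomato marks cells in which Gli1 was active when tamoxifen was given and cells derived from them, and a Gli1- cell may be one in which recombination did not take place. Levels are counts scaled to library size by TMM (CPM), and log2FC is Gli1+ over Gli1- from edgeR. Its standard error (SE) was derived as |log2FC| divided by the square root of the F statistic of the edgeR test. That statistic draws on dispersion estimated over many genes, so the SE is not the spread of 1 gene alone.

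Libraries held 17114101 to 18602482 counts. Gli1, the check of the labels, lay between 4.55 and 7.98 CPM in Gli1+ cells and between 0.724 and 2.43 CPM in Gli1- cells, so the groups did not overlap. The chondrocyte marker Col2a1 was present in every library, at 2130 to 13500 CPM. Gli1+ replicate 1 stood apart, with 15000 genes detected against 20666 to 23360 in the other libraries. Gli1- replicate 1 also stood apart, since 16 leukocyte markers summed to 3710 CPM there and to 45.3 to 198 CPM elsewhere, with S100a9 and S100a8 the most abundant of them. Erythroid markers (8 genes) summed to 0.952 to 21.4 CPM in Gli1- and to 0 to 6.2 CPM in Gli1+ cells, endothelial markers (8 genes) to 5.18 to 19.8 and to 4.11 to 5.04 CPM, and skeletal muscle markers (10 genes) to 6.67 to 37.6 and to 4.04 to 43.5 CPM. No marker of these lists was at 0 in every library.

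Of all genes, edgeR called 0 of 14801 (0%) by an adjusted p under 0.05 with a |log2FC| over 1, and 514 (3.47%) had an unadjusted p under 0.05. DESeq2 called 17, limma-voom 0 and edgeR with the replicate number as a block 0. DESeq2 with the replicate block called 425 of 13788 genes (3.08%), and of the 10 genes it called Smad3 alone. Since Smad3 had been picked on this comparison, nothing is read from that call.

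Smad3 was 3.4-fold lower in Gli1+ than in Gli1- cells, and the other 5 SMADs overlapped between the populations. Smad3 (ENSMUSG00000032402) spans bases 63646767 to 63757994 of chromosome 9 in mm10 and is read from the minus strand. Its level was 92.5, 103 and 73.4 CPM in Gli1+ replicates 1, 2 and 3, from 1749, 1682 and 1398 counts. It was 292, 295 and 329 CPM in Gli1- replicates 1, 2 and 3, from 5643, 4450 and 6225 counts. Every Gli1+ library was below every Gli1- library, and the highest of the first stood at 103 CPM against the lowest of the second at 292 CPM. The means were 89.7 ± 15.1 and 305 ± 20.8 CPM (SD, n = 3 each), with a log2FC of -1.77 (SE 0.38). A log2FC under -1 was found for 9.43% of the genes tested, and 438 genes, or 2.96%, had a log2FC at or below that of Smad3. Its spread within groups was small, an SD of 0.19 on the log2 CPM scale, which 2.07% of genes matched or went under. Gli1- replicate 1, the library with the leukocyte transcripts, had Smad3 at 292 CPM, almost level with the 295 CPM of Gli1- replicate 2. The log2FC became -1.80 once this Gli1- library was dropped, and -1.81 once Gli1+ replicate 1 was dropped instead. Whether the leukocyte transcripts bear on the Smad3 difference was not tested. A lower level in bulk RNA can come from fewer cells with the transcript or from less transcript per cell, and these cannot be told apart.

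**Figure D1:**
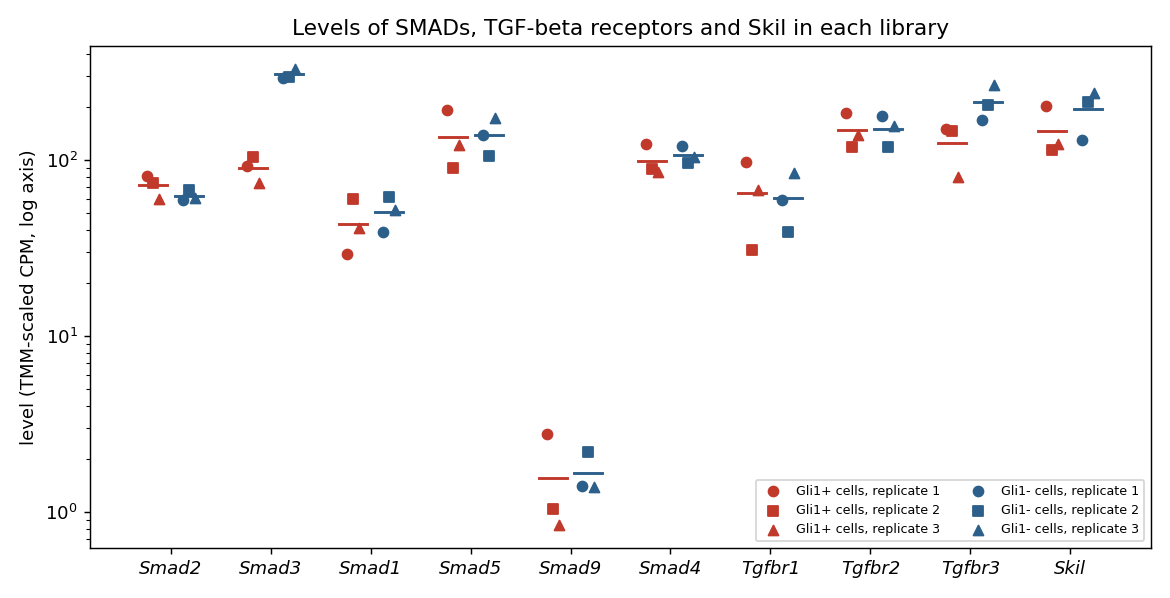
Level of each gene in CPM after TMM scaling (log axis) in the 3 Gli1+ libraries (red) and the 3 Gli1- libraries (blue), with marker shapes for the replicate number and short lines for the means. Smad3 is the gene with the widest gap, 73.4 to 103 CPM against 292 to 329 CPM.

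Smad2, the close relative of Smad3 that the same receptors phosphorylate, had almost the same level in both populations. Its level was 81.1, 73.3 and 59.8 CPM in the Gli1+ libraries and 59.1, 67.0 and 60.2 CPM in the Gli1- libraries. The groups overlapped, with a log2FC of 0.20 (SE 0.35). Smad4, the common partner of all receptor-activated SMADs, was at 123, 88.3 and 84.8 CPM in Gli1+ and at 120, 95.8 and 104 CPM in Gli1- cells. These ranges overlapped as well, with a log2FC of -0.11 (SE 0.37). Both genes are on chromosome 18. The table counted Smad2 over 3549 bases, while GENCODE M21 gives it exons of 8781 bases in all, because the table's gene model ends earlier. For the other 9 genes the coordinates equalled those of GENCODE M21.

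The SMADs of the BMP branch overlapped between the populations. Smad1 (chromosome 8, 79338395 to 79399518) was at 29.3, 59.8 and 40.7 CPM in Gli1+ and at 38.8, 61.5 and 52.0 CPM in Gli1- cells, with a log2FC of -0.23 (SE 0.42). Smad5 (chromosome 13, 56703010 to 56742377) was at 192, 89.2 and 121 CPM in Gli1+ and at 138, 105 and 172 CPM in Gli1- cells, with a log2FC of -0.04 (SE 0.44). Gli1+ replicate 1 had the highest Smad5 and the lowest Smad1 of all 6 libraries. Without that library the log2FC was -0.42 for Smad5 and -0.03 for Smad1. Smad9 (chromosome 3, 54755582 to 54801257) had few reads, 52, 17 and 16 counts in Gli1+ and 27, 33 and 26 counts in Gli1- cells. Its log2FC of -0.09 (SE 0.80) went to -0.83 without Gli1+ replicate 1, so at this depth no difference could be told. The median log2FC of the 5 SMADs other than Smad3 was -0.09, with a range of -0.23 to 0.20, and the median over all genes tested was 0.00.

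The upstream sequences of Smad3 and Smad5 are shown because they belong to the SMAD with the widest difference and to the most abundant SMAD of the BMP branch, whose levels overlapped. Each is the 250 bases before a RefSeq start in GRCm38.p6, for Smad5 the first of 3 listed starts, in the direction of transcription, with GC boxes (GGGCGG, or CCGCCC where the match is on the other strand) in capitals.
Smad3, chr9:63757995-63758244, minus strand: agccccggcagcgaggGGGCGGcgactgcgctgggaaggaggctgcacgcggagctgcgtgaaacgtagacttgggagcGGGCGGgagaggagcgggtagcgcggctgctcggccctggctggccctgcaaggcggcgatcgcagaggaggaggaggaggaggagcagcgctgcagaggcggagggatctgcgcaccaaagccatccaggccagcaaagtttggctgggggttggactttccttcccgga
Smad5, chr13:56702760-56703009, plus strand: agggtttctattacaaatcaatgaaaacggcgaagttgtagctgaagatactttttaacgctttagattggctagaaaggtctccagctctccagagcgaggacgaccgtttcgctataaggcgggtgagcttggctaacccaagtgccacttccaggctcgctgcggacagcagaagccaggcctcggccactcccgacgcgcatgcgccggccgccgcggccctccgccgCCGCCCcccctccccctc
The Smad3 window had 2 GC boxes and 69.2% G and C, and the Smad5 window shown had 1 and 60.0%. Of the other Smad5 starts, 1 also had 1 GC box, and the third had 7, counted with overlaps, and 1 match to the letters CAGAC. The median over 32851 such windows was 52.4% G and C, and 32.7% of them held a GC box. Neither window shown held the GLI motif GACCACCCA (0.225% of windows), the SMAD palindrome GTCTAGAC (0.167%), the SMAD half-site letters CAGAC (42.2%) or the AP-1 motif TGACTCA (4.46%), each searched on both strands. None of these motifs contains another. Windows of 6 of the 10 genes were in the table used, and the GLI motif was in none of them. These are matches of letters in a short window and say nothing of binding.

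Because levels of different genes can be compared only per length, CPM was divided by the length of each gene in the table. On this scale (CPM per kb) Smad3 was the highest of the 10 genes in Gli1- cells, at 55.1 ± 3.74 (SD, n = 3), above Tgfbr3 in 3 of 3 libraries and with no overlap of their ranges. In Gli1+ cells Smad3 was in the 6th place, at 16.2 ± 2.73, within the ranges of its neighbours Tgfbr2 (17.9 ± 4.14) and Skil (15.1 ± 5.04). Smad4 was the highest gene there at 26.6 ± 5.75, above Smad2 (20.1 ± 3.04) in 3 of 3 libraries although their ranges overlapped. Below Smad2 the order of Tgfbr3 (19.1 ± 5.98), Smad5 (range 12.0 to 25.9) and Tgfbr2 in Gli1+ cells held in 1 of 3 libraries for each pair of neighbours. In Gli1- cells the order after Smad3 was Tgfbr3 (32.6 ± 7.48), Smad4 (28.7 ± 3.29), Skil (range 13.3 to 24.7), Smad5 (18.6 ± 4.53), Tgfbr2 (18.3 ± 3.66) and Smad2 (17.5 ± 1.20). Among these 6 genes, Smad4 and Skil were the only neighbours whose ranges did not overlap. The place of Smad2 depends on the length by which its counts are divided. They were counted over 3549 bases, so a longer length adds bases without counts and lowers its level. With the GENCODE M21 exon lengths, a setting added after the values were seen, Smad2 was at 8.13 ± 1.23 in Gli1+ and 7.07 ± 0.486 in Gli1- cells, with a mean below that of Tgfbr1 in both and below that of Smad1 in Gli1- cells. Tgfbr1, at 9.93 ± 5.07 in Gli1+ and 9.25 ± 3.42 in Gli1- cells, and Smad1, at 6.91 ± 2.46 and 8.11 ± 1.82, overlapped each other in both populations. Smad9 was the lowest gene in both, at 0.288 ± 0.196 and 0.308 ± 0.0863.

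A ratio within a library does not depend on how libraries are scaled. The per-length ratio of Smad3 to Smad2 was 0.731, 0.902 and 0.786 in Gli1+ replicates 1, 2 and 3, and 3.16, 2.82 and 3.50 in Gli1- replicates 1, 2 and 3. With these lengths Smad2 was the more abundant of the pair in every Gli1+ library and Smad3 in every Gli1- library. On the log2 scale the ratio was -0.32 ± 0.15 in Gli1+ and 1.66 ± 0.16 in Gli1- cells (SD, n = 3 each), a difference of -1.97. Without division by length the log2 ratio in Gli1+ cells was 0.33, but that compares genes of unlike length. With the GENCODE M21 exon lengths it was 0.99, but Smad2 was counted over only part of those bases. Which gene led in Gli1+ cells thus rests on the table's lengths. The difference between the populations does not depend on length. It contains the difference in Smad3, which had been picked on this comparison, so it is no separate result.

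Smad3 made up 16.1%, 22.0% and 17.5% of the summed per-length level of the 6 SMADs in Gli1+ replicates 1, 2 and 3, and 41.6%, 43.6% and 43.7% in Gli1- replicates 1, 2 and 3. The share of Smad4 was 30.1 ± 1.99% in Gli1+ against 22.4 ± 2.70% in Gli1- cells, and that of Smad2 was 22.9 ± 1.30% against 13.7 ± 1.56% (SD, n = 3 each). Shares sum to 100%, so a lower share of Smad3 gives the other SMADs higher shares without any higher level. Among the receptor-activated SMADs (Smad1, Smad2, Smad3, Smad5 and Smad9), Smad2 and Smad3 of the TGF-beta branch held 56.0%, 64.4% and 56.8% in Gli1+ and 73.5%, 74.8% and 70.7% in Gli1- cells. The groups did not overlap, and the difference of means was -13.9 percentage points. Smad3, picked on this comparison, is part of this share, so nothing is read from the separation about the TGF-beta branch as a whole.

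**Figure D2:**
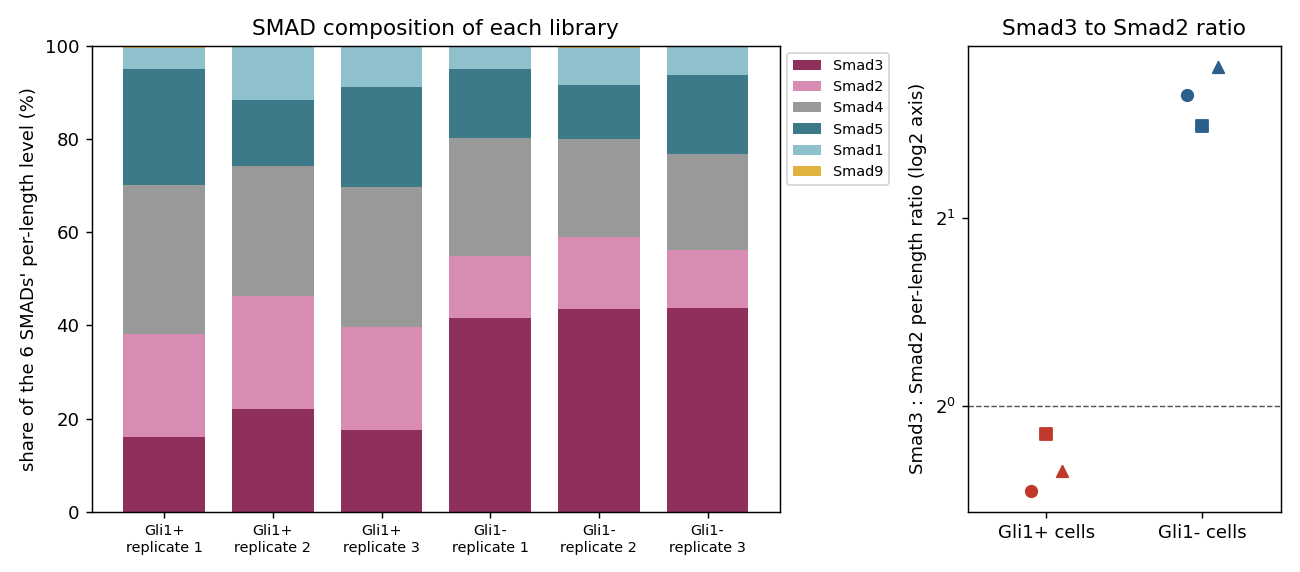
Left, share of each SMAD (%) in the summed per-length level of the 6 SMADs in each library. Right, per-length ratio of Smad3 to Smad2 in each library (log2 axis), with a dashed line at 1. Smad3 holds 16.1% to 22.0% in Gli1+ and 41.6% to 43.7% in Gli1- libraries, and with the table's lengths the ratio is below 1 in the first and above 1 in the second. In Gli1+ cells it is above 1 without division by length (log2 ratio 0.33) and with GENCODE M21 lengths (0.99). The first compares unlike lengths, and the second divides Smad2 counts by bases that were not counted.

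Of the receptors, Tgfbr3 was lower in every Gli1+ library, whereas Tgfbr1 and Tgfbr2 overlapped between the populations. Tgfbr3 (chromosome 5, 107106570 to 107289629) encodes betaglycan, a coreceptor that presents ligand, TGF-beta 2 in particular, to TGFBR2. Its level was 150, 145 and 79.9 CPM in Gli1+ and 169, 206 and 266 CPM in Gli1- cells. The groups did not overlap, though the highest Gli1+ library was close to the lowest Gli1- library, and the log2FC was -0.77 (SE 0.43). By replicate number the difference in log2 CPM was -0.17, -0.51 and -1.73, widest between the libraries numbered 3. Leaving out Gli1+ replicate 3 gave a log2FC of -0.54 and leaving out Gli1+ replicate 1 gave -0.95. GENCODE M21 has a transcript, Gm43422, with 297 exon bases in common with Tgfbr3 on the same strand, which had 0 to 46 counts.

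Tgfbr2 (chromosome 9, 116084293 to 116175360) encodes the ligand-binding receptor kinase. Its level was 184, 118 and 138 CPM in Gli1+ and 177, 118 and 155 CPM in Gli1- cells, with a log2FC of -0.03 (SE 0.39). Libraries with the same replicate number were alike in Tgfbr2, with differences in log2 CPM of 0.06, 0.00 and -0.17. Tgfbr1 (chromosome 4, 47353222 to 47414931) encodes the kinase that phosphorylates SMAD2 and SMAD3. Its level was 96.6, 30.5 and 67.5 CPM in Gli1+ and 58.7, 39.0 and 83.6 CPM in Gli1- cells. It varied more within the groups than Tgfbr2 and Tgfbr3, with an SD of 0.72 on the log2 CPM scale. Its log2FC of 0.10 (SE 0.52) became -0.32 without Gli1+ replicate 1 and 0.43 without Gli1+ replicate 2.

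Skil (chromosome 3, 31095058 to 31122577) encodes a corepressor of SMAD complexes that TGF-beta signalling itself induces as negative feedback. Its level was 202, 113 and 123 CPM in Gli1+ and 129, 213 and 240 CPM in Gli1- cells. The groups overlapped because of the libraries numbered 1, in which the difference in log2 CPM was 0.65, while it was -0.92 and -0.96 for numbers 2 and 3. The log2FC was -0.41 (SE 0.44) over all libraries, -0.73 without Gli1+ replicate 1, and -0.95 with both libraries numbered 1 left out, a choice made after the values were seen.

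Over the 10 genes, 8 had a log2FC below 0 and 2 above, with a median of -0.10. In 2 genes (Smad3 and Tgfbr3) all Gli1+ libraries lay below all Gli1- libraries, a pattern that 4.45% of the genes tested showed, and in 0 genes all lay above, which 4.04% of genes showed. These genes were picked on this comparison, so nothing is read from their count. Relative to Smad3, the log2 CPM of Tgfbr3 over the 6 libraries had a Pearson r of 0.85, that of Skil 0.50 and that of Smad2 -0.47. These correlations describe 6 libraries of 2 populations and carry no test.

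**Figure D3:**
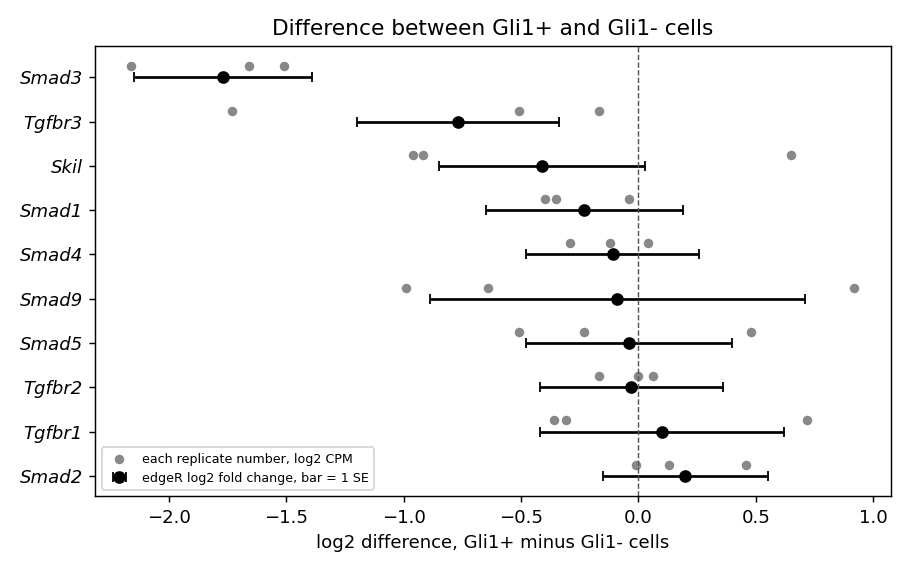
Log2FC of each gene in Gli1+ over Gli1- cells (black points, bars of 1 SE) and the difference in log2 CPM for each replicate number (grey points). Smad3 has all grey points between -2.16 and -1.51, and those of Skil lie on both sides of 0.

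The inhibitory SMADs block receptor signalling and are themselves induced by it. Smad6, which acts mainly on BMP receptors, had 0 counts in Gli1+ replicate 1, where a count of 0 allows up to 3 counts. It was at 4.97 and 2.57 CPM in Gli1+ replicates 2 and 3 and at 9.05, 12.9 and 10.3 CPM in the Gli1- libraries. All Gli1+ libraries were thus below all Gli1- libraries. Smad6 is the nearest protein-coding gene on the side of the Smad3 start, on the same strand of chromosome 9 from 63953076 to 64022059, and 195081 bases separate the genes, with 3 annotated genes, 0 of them protein-coding, wholly between them. Smad7, which blocks both branches, was at 27.8, 83.1 and 108 CPM in Gli1+ and at 119, 79.3 and 113 CPM in Gli1- cells, with overlap, and its low value was in Gli1+ replicate 1.

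Among 16 other type I and type II receptors and coreceptors, 14 were tested, 0 were called, 7 were higher and 7 lower. The log2FC had a median of 0.00. EdgeR called 0 of all 14801 genes (0%), so 0 called says nothing particular of this list or the lists below. Acvr1, which encodes a type I receptor of the BMP branch, was lower in every Gli1+ library, at 101, 71.5 and 112 CPM against 187, 129 and 201 CPM, with a log2FC of -0.86 (SE 0.40). Its difference by replicate number was -0.89, -0.86 and -0.84 in log2 CPM. Bmpr2, the type II BMP receptor, was at 309 CPM in Gli1+ replicate 1 and at 33.6 to 113 CPM in the other 5 libraries. Cd109, a coreceptor that dampens TGF-beta signalling, and Bmpr1a overlapped, with log2FC of 0.27 (SE 0.46) and 0.21 (SE 0.48).

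The next list holds the TGF-beta ligands and the latent complex, which stores and releases them. Of its 13 genes, 12 were tested and 0 called, with 6 higher and 6 lower and a median log2FC of 0.01. The populations were fully separated for 6 genes, with Gli1+ cells above in 3 (over all genes tested, 4.04%) and below in 3 (over all genes, 4.45%). Tgfb2, the ligand that needs betaglycan most, was at 486, 318 and 565 CPM in Gli1+ and at 159, 241 and 290 CPM in Gli1- cells, with a log2FC of 0.99 (SE 0.45). Thbs1, which encodes an activator of latent TGF-beta, was higher in every Gli1+ library, at 3300 to 4410 against 1800 to 3060 CPM. The remaining 4 genes were picked for description after their values were seen. Lrrc32, which tethers latent TGF-beta to the cell surface, was at 54.2 to 109 CPM in Gli1+ and at 30.5 to 48.5 CPM in Gli1- cells. Tgfb1 was at 67.1 to 137 against 138 to 182 CPM, so the nearest libraries of the populations were almost level. Ltbp4, a latent TGF-beta binding protein, was at 9.30 to 31.9 against 33.4 to 121 CPM, and Itgb8, an integrin subunit that activates latent TGF-beta, at 1.69 to 3.38 against 7.63 to 15.3 CPM. Ltbp2 and Itgav were higher in Gli1+ cells for each replicate number, but their groups overlapped.

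Of 11 SMAD anchors and corepressors, 10 were tested and 0 called, with 4 higher, 6 lower and a median log2FC of -0.08. Ski, the closest relative of Skil, was at 153, 82.2 and 121 CPM in Gli1+ and at 223, 95.9 and 176 CPM in Gli1- cells. It was lower in Gli1+ cells for each replicate number, with overlapping groups. Of 17 ubiquitin ligases, deubiquitinases and phosphatases of SMADs, all 17 were tested and 0 called, with 9 higher, 8 lower and a median of 0.02. Smurf2, a ligase for receptors and SMADs, had a log2FC of 0.35 (SE 0.65) with 421 CPM in Gli1+ replicate 1 and less in the other 5 libraries. Ctdspl, a SMAD phosphatase gene picked after its values were seen, was at 38.7 to 40.4 against 45.7 to 59.6 CPM.

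Of 20 partner factors and coactivators, 19 were tested and 0 called, with 9 higher, 10 lower and a median log2FC of -0.04. Sox9, the master factor of chondrocytes, was at 241, 223 and 469 CPM in Gli1+ and at 415, 365 and 580 CPM in Gli1- cells, lower for each replicate number but with overlap. Jun, Junb and Atf3, which are also immediate early genes that respond to cell handling, were lower in Gli1+ cells for each replicate number, with log2FC of -1.45 (SE 0.88), -1.17 (SE 0.82) and -1.37 (SE 1.01). Kat2b, Runx1 and Tfe3, picked after their values were seen, had all Gli1+ libraries below all Gli1- libraries. Over all genes tested, 4.45% showed this pattern. Runx1 was at 108 to 162 against 177 to 286 CPM. Of 10 kinases and GTPases that TGF-beta receptors use without SMADs, 10 were tested and 0 called, and the median was 0.05.

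Of 25 genes that TGF-beta is known to induce, 25 were tested and 0 called (over all genes, 0%). Of these, 12 were higher and 13 lower, with a median log2FC of -0.03, beside 0.00 for all genes. The list holds Smad7 and Skil. Fn1, the gene of fibronectin, was at 69100, 15100 and 55900 CPM in Gli1+ and at 17200, 10100 and 24600 CPM in Gli1- cells. Fn1 was higher in Gli1+ cells for each replicate number, with overlap. Ctgf, the gene of connective tissue growth factor, was at 4490, 6450 and 11300 against 4250, 2710 and 5640 CPM. Tsc22d1 was lower in Gli1+ cells for each replicate number, with a log2FC of -1.5 (SE 1.09). Timp3 was higher for each, with a log2FC of 0.4 (SE 0.63), and both overlapped. Prg4, which encodes lubricin and was picked after its values were seen, was lower in every Gli1+ library, at 133, 79.8 and 142 against 271, 194 and 373 CPM, with a log2FC of -1.24 (SE 0.45).

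**Figure D4:**
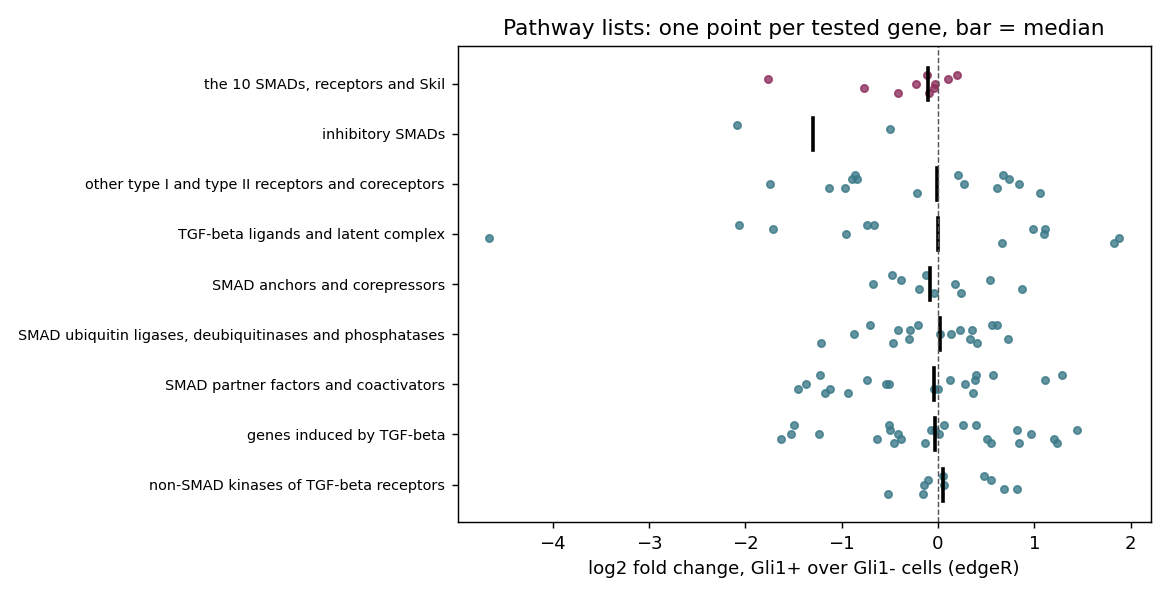
Log2FC in Gli1+ over Gli1- cells for the 10 genes and for 8 lists of the TGF-beta and BMP pathways, with 1 point for each gene tested and a black bar at the median. The medians of the lists other than the inhibitory SMADs lie between -0.08 and 0.05, and Smad3 is the lowest of the 10 genes at -1.77.

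Marker lists differed between the groups to different degrees, and their part in the Smad3 result was not tested. Of 12 chondrocyte markers, 12 were tested, 4 were higher and 8 lower, the median log2FC being -0.30, and their sum was 8750 to 23100 CPM in Gli1+ and 7070 to 31200 CPM in Gli1- cells. The libraries numbered 2 held the highest sums in both populations, while Smad3 was the highest of the Gli1+ libraries and the middle one of the Gli1- libraries there. Of 10 markers of fibroblasts and perichondrium, 10 were tested, 1 was higher and 9 were lower, with a median of -1.06. Their sum was 2840, 4060 and 1830 CPM in Gli1+ and 2220, 9280 and 2560 CPM in Gli1- cells, so the groups overlapped. Pdgfra of that list, picked after its values were seen, was at 43.1 to 85.4 against 206 to 355 CPM. Of 12 hypertrophic chondrocyte genes, 11 were tested, 6 were higher and 5 lower, with a median of 0.47. Col10a1, the defining collagen of hypertrophic cells, was lower in Gli1+ cells for each replicate number, at 34.6, 285 and 71.9 against 161, 1780 and 210 CPM, with overlap. Spp1 of the same list was also lower for each replicate number, with a log2FC of -0.54 (SE 0.79) and overlap. Vegfa was higher for replicate numbers 2 and 3 only, with a log2FC of 0.47 (SE 0.53) and overlap. Mmp13, the collagenase of late hypertrophic cells, was higher in every Gli1+ library. So were Sp7 (5.08 to 9.56 against 0.672 to 3.78 CPM) and Panx3 (1.42 to 1.97 against 0.259 to 0.928 CPM), picked after their values were seen. All Gli1+ libraries thus lay above in 3 genes (over all genes tested, 4.04%) and below in 0 (over all genes, 4.45%). Panx3, 1 of the 3, was near the low-count filter, at 0.259 CPM in Gli1- replicate 1. Its higher Gli1+ level helps such a gene to pass, so nothing is read from these counts of genes.

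The patterns closest to that of Smad3 were sought among 6588 other genes with a mean of at least 20 CPM, by Pearson r of log2 CPM over the 6 libraries. The 5 highest were Mylip (r = 0.990), Il16 (0.986), Pxk (0.986), Sik1 (0.985) and Map3k5 (0.980). All had every Gli1+ library below every Gli1- library, and of these Map3k5, a stress-activated kinase gene, had a log2FC of -1.89, near that of Smad3, at 13.1, 19.7 and 13.2 against 63.0, 45.2 and 62.1 CPM. Mylip, which encodes a ubiquitin ligase for the LDL receptor, was at 19.6 CPM on average (SD 2.57) against 38.1 CPM (SD 4.25). The 3 lowest were Arf2 (r = -0.994), Mmp13 (-0.980) and Lbh (-0.975). Mmp13 was at 5330, 2860 and 4860 CPM in Gli1+ and at 457, 592 and 607 CPM in Gli1- cells, a log2FC of 2.98 (SE 0.54). These genes were ranked by likeness to a gene with separated groups, so their own separation follows from the ranking.

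**Figure D5:**
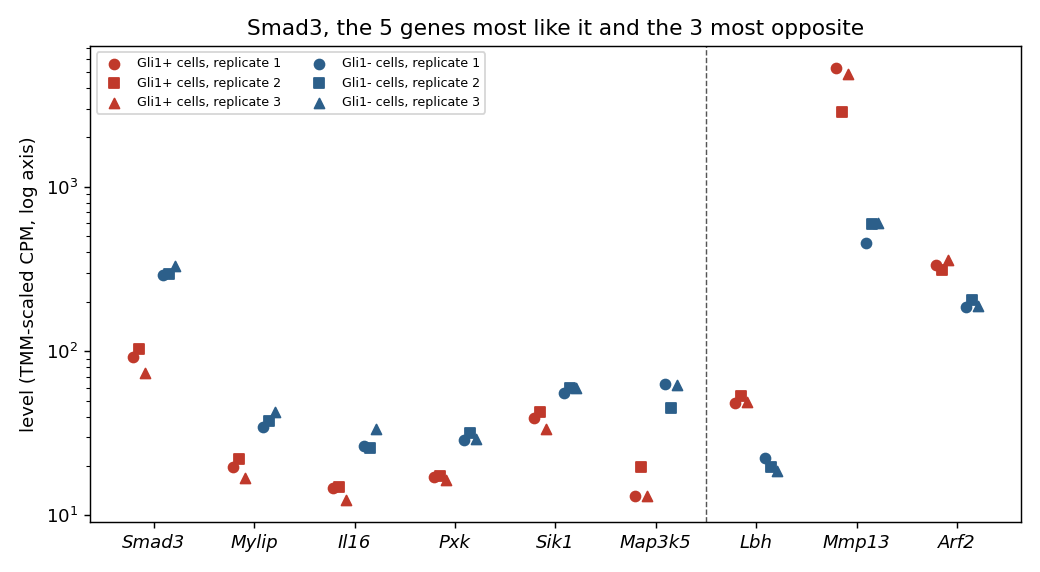
Levels in CPM after TMM scaling (log axis) of Smad3, the 5 genes with the highest and, right of the dashed line, the 3 with the lowest correlation with it, in Gli1+ (red) and Gli1- (blue) libraries. Mmp13 spans 457 to 607 CPM in Gli1- and 2860 to 5330 CPM in Gli1+ libraries, the reverse of Smad3.

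RNA levels do not show how much SMAD protein was present or phosphorylated. The values rest on 3 libraries a population, and the SE of the log2FC was 0.35 to 0.80 for the 10 genes.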

How the data were processed

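Poly-A RNA from sorted cells was sequenced by Novogene. The authors deposited a table of raw counts, whole numbers of reads per gene in each library, with coordinates and lengths. The submitters' processing notes name HISAT2 2.0.5, featureCounts 1.5.0-p3 and mm10. The annotation and strand setting are not given in the sources used here. Of 54532 genes, 54409 were found in GENCODE M21 and 98.3% of these had the same coordinates. The table had 0 unused columns of sample values.

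Genes were filtered with filterByExpr (minimum count of 10), scaled by TMM and tested with the quasi-likelihood test of edgeR 4.0.16 in R 4.3.3 (prior count of 2 for log2 CPM), with Benjamini-Hochberg adjustment over 14801 genes. The thresholds, |log2FC| over 1 and adjusted p under 0.05, follow the study's Methods. With them the paper reports genes that differ between the populations, from a test whose tool it does not name. Alternatives were other scalings, no filter, limma-voom (limma 3.58.1), DESeq2 1.42.0, the replicate block and each library left out. The code was tested on simulated data with a lower spread than these libraries, which says nothing of the power to call genes here. According to the paper the same mice gave both populations, and deviations of libraries with the same number correlated at 0.223, 0.720 and 0.471 over genes, and the block fits pair libraries by number, while the main comparison has no block. Pair 1 was the least clear, since Gli1+ replicate 1 correlated at 0.274 with Gli1- replicate 3, and Gli1+ replicate 3 at 0.107 with Gli1- replicate 1. Totals of 17114101 to 18602482 counts limit Smad9 and Smad6 most. Counting floors cover counting error only.

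The members and lists were chosen with earlier results of these data known. Of each list the text names at most the 4 genes highest in mean CPM, any called gene (there were 0), and the 5 genes most and 3 least like Smad3 with a mean of at least 20 CPM. Others are said to have been picked after their values were seen.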

Additional observations from a re-analysis of the deposited data

How the results depend on the processing

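The lower Smad3 in Gli1+ cells had the same direction in all 15 alternatives, with a log2FC of -1.89 to -1.65 when single libraries were left out. It was -1.78 with the replicate block in edgeR and -1.80 with the replicate block in DESeq2. Smad3 had been picked on this comparison and its groups were far apart, so the shared direction is no separate result. Of the 10 genes, 6 had the same sign in every alternative, and the exceptions were Smad5, Smad9, Tgfbr1 and Tgfbr2. Of 150 values of log2FC, 145 moved by less than 1 SD between libraries, and the others belonged to Smad9 and Skil. The count of genes called was 0 in edgeR, and 267 without a filter, 17 with DESeq2 and 425 with DESeq2 and the replicate block. With both libraries numbered 1 left out, a choice made after the data were seen, it was 725 with DESeq2 and the replicate block and 0 with edgeR. Of the 10 genes, 1 was called in the paired DESeq2 fit (Smad3), which called 425 of 13788 genes (3.08%). With the libraries numbered 1 also left out, 2 were called (Smad3 and Tgfbr3), beside 725 of 12912 genes. The 10 genes had been picked on this comparison, so nothing is read from these calls. Among the 10 genes the block changed no other call. The cause of the differences in the counts of genes called was not tested. Without division by length the log2 ratio of Smad3 to Smad2 was 0.33 in Gli1+ and 2.30 in Gli1- cells, and with GENCODE M21 lengths, also added later, 0.99 and 2.96. The share of Smad2 and Smad3 was then 47.6% and 66.0% (a difference of -18.4 points), and 49.2% and 69.8% (-20.6 points). These moves follow from the lengths alone, and the GENCODE M21 length of Smad2 includes bases over which it was not counted. Counts of Smad9 (16 to 52) limit what can be said of that gene.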
